A study of Mus musculus with 32 samples.

Results

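The comparison set high-score regions against low-score regions of MMTV-PyMT lesions, where the score is the mean log2(CPM + 1) of 7 genes of dividing cells: Mki67, Top2a, Ube2c, Birc5, Tpx2, Ccnb1 and Mcm2. CPM here is the read count scaled by the library's total to a common depth. Of 32 libraries, 29 were lesions, and 26 of these held at least 11000 genes with a count of 1 or more. Within each stage the libraries were ranked by score and the upper ranks set against the lower, with the middle library dropped where the number was odd. This gave 24 regions, 12 high-score and 12 low-score: hyperplasia gave 2 of each, adenoma 3, carcinoma 4 and lung metastasis 3. Regions were thus chosen by the measured levels of these 7 genes, so the 7 genes are described without a test.

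RNA was sequenced from laser-captured patches of a single fluorescent colour, cut from 7 µm sections of tumours at their largest permitted size in female mice carrying MMTV-PyMT, R26-CBW and K8-CreERT2. Every region in both groups came from mice of that genotype, given 5 mg tamoxifen into the abdomen at 5 weeks of age. The oncogene is driven by the MMTV promoter, active mainly in mammary epithelium, and the recombinase by a keratin 8 promoter, so colour marks keratin 8 cells and their progeny. The series had 3 animals, and no label says which of them a region came from, so regions of a group share animals and every p-value over regions below is too small.

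Cells that divide copy their DNA in S phase and separate it in mitosis, and the genes for each step are transcribed in waves. In resting cells many of these promoters are held silent by the DREAM complex, which contacts promoter elements called CHR, often found near CCAAT boxes, and S phase promoters carry E2F sites. Polyoma middle T antigen, the oncogene of these mice, acts at the cell membrane as a signalling scaffold, and the lesions it drives in the mammary gland pass through graded stages to lung metastases.

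The 4 promoters below are shown because they belong to a pair of score genes that stood apart most between the groups once the libraries were rescaled (Ccnb1 and Mcm2) and a pair that did not (Top2a and Ube2c). Each is the 250 bases before the annotated start, read 5′ to 3′ in the direction of the gene, from RefSeq on GRCm38.p6. Capitals mark CCAAT or its reverse complement ATTGG, and TTTGAA (the usual CHR letters) or its reverse complement TTCAAA. The windows lie at chr13:100786487-100786736, minus strand, for Ccnb1; chr6:88898781-88899030, minus strand, for Mcm2; chr11:99024190-99024439, minus strand, for Top2a; and chr2:164769679-164769928, plus strand, for Ube2c.
Ccnb1: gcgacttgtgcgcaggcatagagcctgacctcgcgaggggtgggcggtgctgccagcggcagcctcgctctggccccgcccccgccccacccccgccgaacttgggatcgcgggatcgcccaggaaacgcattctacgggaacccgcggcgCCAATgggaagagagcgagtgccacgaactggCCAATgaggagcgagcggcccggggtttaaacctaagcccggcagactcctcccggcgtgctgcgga
Mcm2: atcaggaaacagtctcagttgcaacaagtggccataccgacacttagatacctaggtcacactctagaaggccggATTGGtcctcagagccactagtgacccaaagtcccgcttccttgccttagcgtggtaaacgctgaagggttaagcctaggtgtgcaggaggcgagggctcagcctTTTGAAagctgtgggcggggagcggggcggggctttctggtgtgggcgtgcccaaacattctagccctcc
Top2a: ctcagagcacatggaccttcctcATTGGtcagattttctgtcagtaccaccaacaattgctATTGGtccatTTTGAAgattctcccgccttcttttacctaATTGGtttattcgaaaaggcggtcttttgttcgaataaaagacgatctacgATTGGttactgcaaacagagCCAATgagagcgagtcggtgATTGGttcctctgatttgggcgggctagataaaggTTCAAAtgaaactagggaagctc
Ube2c: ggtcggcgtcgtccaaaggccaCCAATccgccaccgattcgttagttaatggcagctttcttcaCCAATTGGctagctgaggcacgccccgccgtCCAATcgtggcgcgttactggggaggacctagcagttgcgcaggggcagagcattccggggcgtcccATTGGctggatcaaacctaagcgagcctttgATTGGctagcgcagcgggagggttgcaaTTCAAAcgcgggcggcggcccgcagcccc

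CCAAT on either strand stood 2 times in the Ccnb1 window, 1 time in that of Mcm2, and 6 times each in those of Top2a and Ube2c, where a forward and a reverse match of Ube2c overlap. TTTGAA on either strand stood 0 times at Ccnb1, 1 time at Mcm2, 2 times at Top2a and 1 time at Ube2c. Mki67 held 3 and 2 matches and Birc5 none of either. The E2F letters TTTCCCGC, TTTGGCGC and TTTCGCGC, searched on both strands, were in none of the 6 windows found, and Tpx2 is named only. Of 27025 genes with a window, 34.46% held CCAAT, 16.27% TTTGAA and 1.587% an E2F match. Of the 59 genes of a G2 and mitosis list with a window these shares were 69.49%, 35.59% and 6.78%, and of 39 genes of an S phase list 61.54%, 12.82% and 23.08%. These matches are letters in a window and were not tied to binding in these regions.

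The score by region differed in how far it parted the groups. In hyperplasia, regions 21 and 44 scored 7.14 and 6.43, against 5.62 and 6.27 for regions 33 and 46, so the closest pair of high and low regions lay 0.16 apart. In adenoma, regions 24, 34 and 47 scored 6.70, 6.71 and 7.47, against 5.79, 4.39 and 5.66 for regions 25, 36 and 50. In carcinoma, regions 08, 37, 38 and 54 scored 6.44, 6.75, 6.30 and 6.32, against 5.83, 5.83, 5.01 and 4.13 for regions 06, 07, 39 and 53. In these 2 stages the gap between the groups was 0.91 and 0.46, with adenoma 48 (6.02) and carcinoma 55 (6.07) in the middle and left out. In metastasis, regions 02, 27 and 58 scored 6.07, 6.93 and 7.01, against 3.31, 4.44 and 5.76 for regions 40, 56 and 57, a gap of 0.31.

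**Figure D1:**
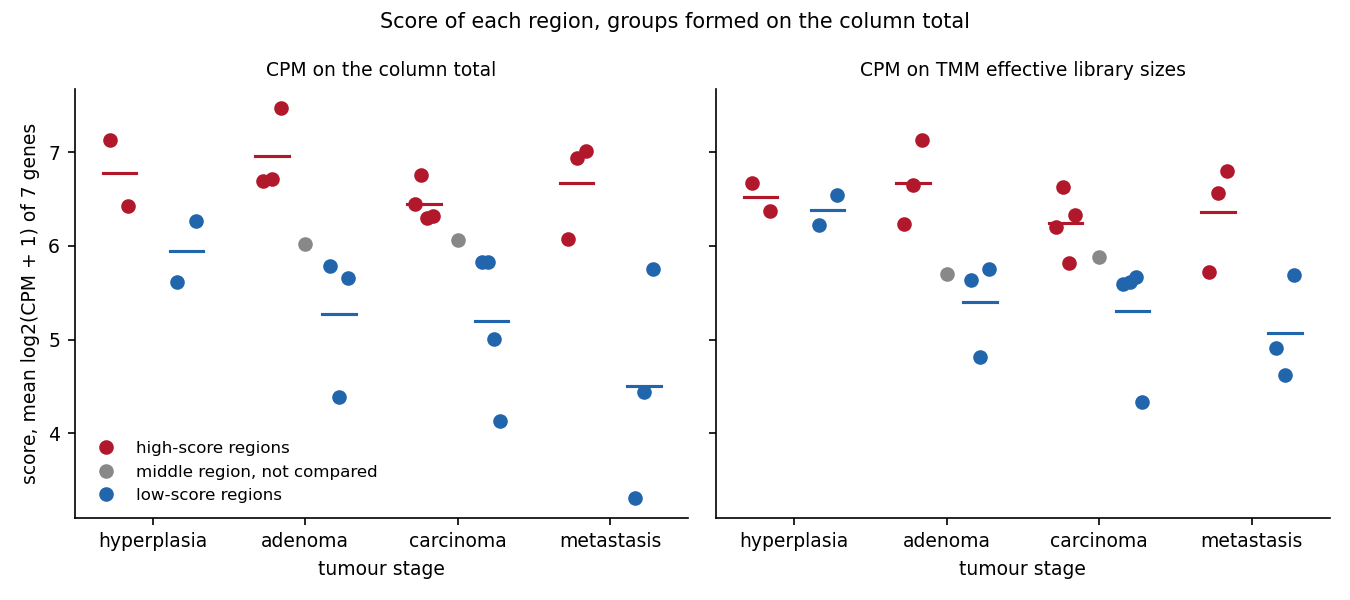
Score (mean log2(CPM + 1) of 7 genes, vertical axis) of each region by tumour stage, with high-score regions in red left of low-score regions in blue, middle regions in grey and short lines at group means; the left panel uses CPM on the column total, which formed the groups, and the right panel CPM on TMM effective library sizes. On the left the groups part in every stage by construction, and on the right those of hyperplasia overlap.

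Part of the score difference came with a single gene ID. Gene ID 100861531, to which the reference tables used here give no name, took 8.15% to 27.1% of the counts of high-score regions (median 15.8%), against 9.28% to 78.8% in low-score regions (median 31.9%). Its share was highest in the low-score regions metastasis 40 (78.8%), hyperplasia 33 (56.5%), carcinoma 39 (53.7%) and carcinoma 53 (44.5%). Because its counts stand in the column total, they lower the score of a region, so its level is described without a test. The mean difference in score over the 4 stages was 1.49 on the column total, 1.09 with this ID taken out of the total and 0.91 on TMM library sizes, which are column totals rescaled so that most genes are level between libraries. Stage by stage the TMM difference was 0.15 (hyperplasia), 1.27 (adenoma), 0.94 (carcinoma) and 1.29 (metastasis), beside an SD within groups and stages of 0.49.

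**Figure D2:**
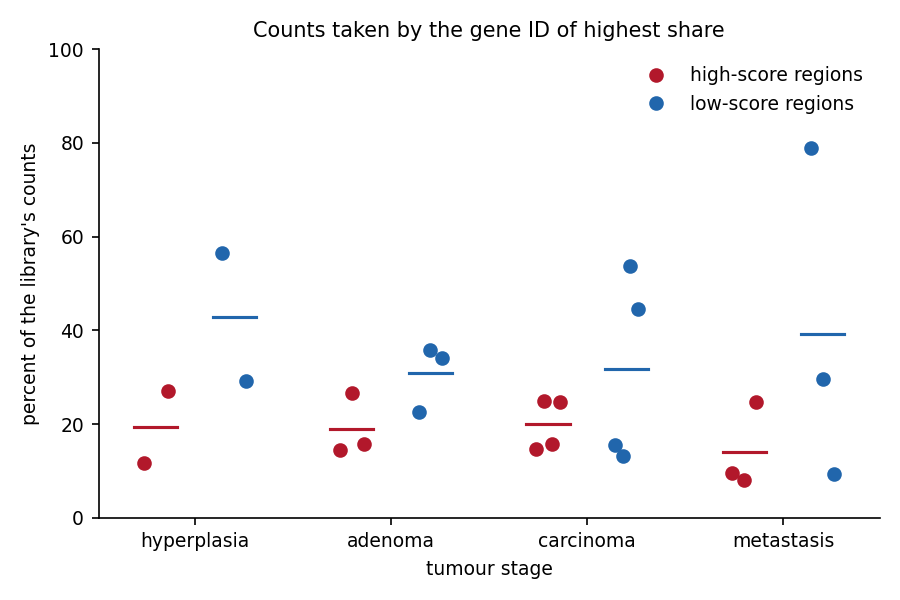
Percent of each library's counts in gene ID 100861531 (vertical axis) by tumour stage, with high-score regions in red left of low-score regions in blue and lines at group means. The 12 high-score regions lie between 8.15% and 27.1%, and the low-score regions spread from 9.28% to 78.8%.

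Regrouping by the score on TMM sizes left 20 of the 24 regions where they were, switched hyperplasia 44 and 46 and moved adenoma 50 and carcinoma 38 to the middle. Leaving the ID out of the total kept 23 regions. Total counts ran from 2688611 to 19585351 in high-score regions (median 9147107) and from 4443497 to 15884714 in low-score regions (median 9725386). Detected genes ran from 13847 to 17667 in high-score regions and from 12061 to 17578 in low-score regions.

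The 3 genes used as markers of dividing cells overlapped between the groups. On the column total, which formed the groups, the mean log2 difference was 0.94 for Mki67, 0.69 for Top2a and 0.74 for Ube2c. Each was positive in 4 of 4 stages there. All levels from here on are CPM on TMM sizes, and 3 values in a row are the lowest, the median and the highest of 12 regions. Mki67, the antigen Ki-67 of cycling cells, had 55.5, 154 and 219 CPM in high-score regions, against 29.7, 102 and 341 CPM in low-score regions. Top2a, the topoisomerase that untangles chromosomes, had 74.8, 133 and 189 CPM in high-score regions, against 43.6, 89.5 and 323 CPM in low-score regions. Ube2c, which hands ubiquitin to the mitotic exit machinery, had 112, 176 and 244 CPM in high-score regions, against 32.2, 142 and 444 CPM in low-score regions. The low-score median was exceeded by 11 of 12 high-score regions for Mki67, 10 for Top2a and 9 for Ube2c. For all 3 the low-score regions spread wider and reached the top value, and the group means were 156 ± 44.1 CPM in high-score regions and 133 ± 94.1 CPM in low-score regions for Mki67, 129.6 ± 34.2 CPM in high-score regions and 132 ± 89 CPM in low-score regions for Top2a and 176 ± 44.8 CPM in high-score regions and 186 ± 135 CPM in low-score regions for Ube2c (SD, n = 12 each). The summed level of the 3 was 364, 453 and 611 CPM in high-score regions; in low-score regions the lowest and the median were 186 and 406 CPM, and metastasis 57 had the highest sum of all. The groups are therefore called by their score and not by proliferation.

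The other 4 score genes divided into a pair of patterns. Birc5, which encodes survivin of the chromosomal passenger complex, overlapped in full with 33.2, 114 and 246 CPM in high-score regions, against 13.4, 66.7 and 398 CPM in low-score regions. Ccnb1, the cyclin that starts mitosis, had 12.2, 58 and 142 CPM in high-score regions, against 2.77, 16.1 and 46.7 CPM in low-score regions, and 7 of 12 high-score regions lay above every low-score region. Mcm2, a subunit of the replicative helicase, had 23.5, 62.8 and 78.6 CPM in high-score regions, against 0, 11.4 and 69.9 CPM in low-score regions, and 5 high-score regions lay above every low-score one. Tpx2, which builds the spindle around chromosomes, had 2.73, 38.3 and 155 CPM in high-score regions, against 2.61, 10.3 and 63.8 CPM in low-score regions, and 1 region, adenoma 47, lay above every low-score region. These 3 genes gave 67.5% of the score difference on the column total and 84.6% of it on TMM sizes, where the mean of high-score regions was 3.07 times that of low-score regions for Tpx2, 3.22 times for Ccnb1 and 2.78 times for Mcm2, with a positive difference in 4 of 4 stages. On TMM sizes Mki67, Top2a, Ube2c and Birc5 had mean log2 differences of 0.34, 0.09, 0.13 and 0.42, positive in 2, 2, 1 and 3 stages.

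Single regions broke the pattern in both directions. Low-score adenoma 36 had a Ube2c level of 444 CPM, the highest of all, with Mcm2 at 0. Low-score hyperplasia 46 had the highest Mki67 level, 341 CPM, with Mcm2 at 9.60 CPM. High-score carcinoma 38 had Mki67 at 55.5 CPM and Ccnb1 at 12.2 CPM, both the lowest of their group, and high-score metastasis 02 had Tpx2 at 2.73 CPM. The order of the regions thus differed from gene to gene.

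**Figure D3:**
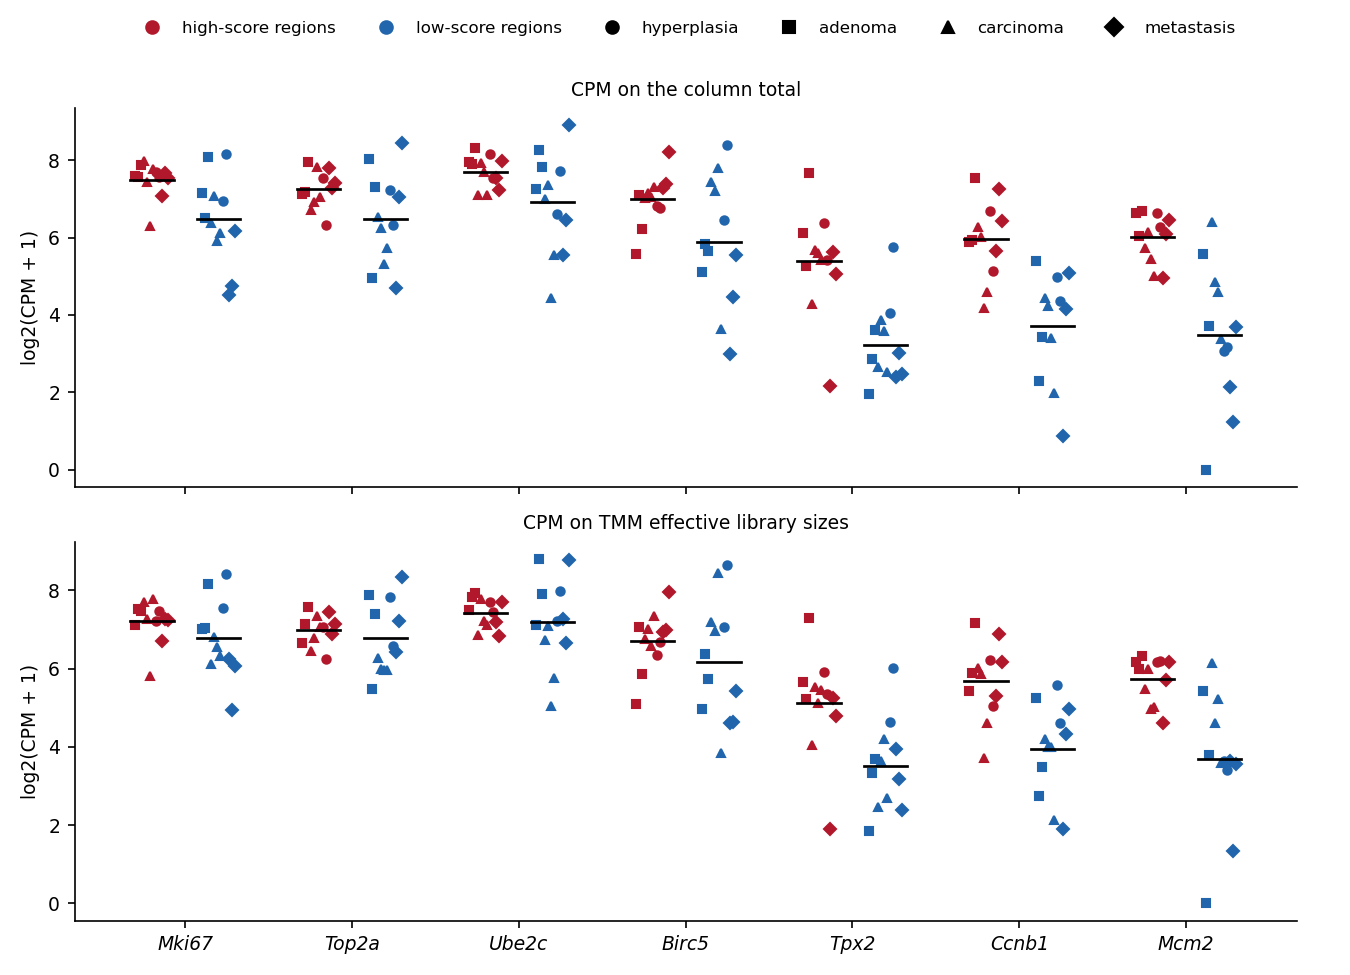
Level of each score gene, log2(CPM + 1) on the vertical axis, in 12 high-score regions (red, left) and 12 low-score regions (blue, right), on the column total above and on TMM library sizes below; marker shape gives the stage and lines give means. On TMM sizes the red and blue points of Mki67, Top2a, Ube2c and Birc5 overlap, with the blue points spread wider, while those of Tpx2, Ccnb1 and Mcm2 are shifted apart.

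Outside the score no gene passed the test. Of 17355 genes tested outside the score and gene ID 100861531, the edgeR quasi-likelihood test with stage as covariate called 0 (0%) at an adjusted p of 0.05, with a smallest adjusted p of 0.547, and 964 (5.55%) had an unadjusted p under 0.05, 433 higher (2.49%) and 531 lower (3.06%). The DESeq2 Wald test called 33 higher (0.19%) and 28 lower (0.161%), of which 22 reached 20 CPM in either group, and limma voom with sample weights called 0. With the score as a continuous covariate in 26 regions, edgeR called 5 higher (0.0263%) and 9 lower (0.0474%). Of these 14, those with 20 CPM in either group were Lars2 and Tln1. Whether the difference between the groups varied by stage was tested as well, while levels were not compared between stages. That test called 0 genes in edgeR (1411, or 8.13%, at an unadjusted p under 0.05) and 16 (0.0921%) in DESeq2. Spread between regions of a group was wide, with a common dispersion of 2.02. Because regions hold mixed cells, fewer cells of a type and less RNA per cell cannot be told apart.

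The genes of smallest p with higher levels in high-score regions are given as values, among genes whose higher group averaged 20 CPM or more and had 10 or more reads in at least 75% of its regions. Psmb2, a catalytic-core subunit of the proteasome, had 36.8, 159.9 and 246 CPM in high-score regions, against 43, 64.1 and 131 CPM in low-score regions, and 8 of 12 high-score regions lay above every low-score one, for a log2 fold change of 1.09 ± 0.31 (SE). Usp1, a deubiquitinase that acts on PCNA and FANCD2 in DNA repair, had 21.4, 54.8 and 80.6 CPM in high-score regions, against 1.34, 17.1 and 44.8 CPM in low-score regions, with 8 high-score regions above every low-score one and a log2 fold change of 1.68 ± 0.50. For Usp1 all 12 and for Psmb2 11 of 12 high-score regions exceeded the low-score median. Cndp2, a cytosolic dipeptidase, had 9.02, 30.9 and 60.1 CPM in high-score regions, against 0.713, 6.36 and 23 CPM in low-score regions (log2 fold change 2.34 ± 0.67). Lypla1, which removes palmitate from proteins, had 11.5, 33.1 and 127 CPM in high-score regions, against 3.08, 8.94 and 32.8 CPM in low-score regions (log2 fold change 1.77 ± 0.55). Rbbp9, a serine hydrolase named for binding the retinoblastoma protein, had 5.45, 21.5 and 52.7 CPM in high-score regions, against 0, 0.818 and 27.4 CPM in low-score regions (log2 fold change 3.25 ± 0.95). Rbbp9 met these limits through the high-score regions, since 4 of 12 low-score regions had 10 counts or more. With all 29 lesion libraries ranked the value for Cndp2 was 0.54, and with groups formed on TMM sizes that for Usp1 was 0.84. All 5 had the higher mean in 4 of 4 stages, as did 8.56% of all genes, and their edgeR adjusted p-values were 0.547 to 0.581.

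In the other direction, under the same limits, the level was lower in high-score regions. Chd7, a chromatin remodeller, had 18.4, 37.8 and 120.3 CPM in high-score regions, against 29.2, 129 and 268 CPM in low-score regions, and 7 low-score regions lay above every high-score one (log2 fold change -1.48 ± 0.41). Tln1, talin, which couples integrins to actin, had 27, 70.2 and 132 CPM in high-score regions, against 61.2, 154 and 332 CPM in low-score regions (log2 fold change -1.17 ± 0.33). Zfp276, a zinc finger gene, had 7.69, 18.2 and 37.2 CPM in high-score regions, against 17.5, 53.1 and 128 CPM in low-score regions, with 10 of 12 low-score regions above every high-score one (log2 fold change -1.52 ± 0.44). All 3 had overlapping groups. Ltf, lactoferrin, an iron-binding milk and neutrophil protein, had 0.855, 263 and 1391 CPM in high-score regions, against 93.4, 826 and 2891 CPM in low-score regions (log2 fold change -1.89 ± 0.53). Lars2, the mitochondrial leucyl-tRNA synthetase, had 831, 2686 and 6611 CPM in high-score regions, against 2151, 7584 and 42568 CPM in low-score regions (log2 fold change -1.72 ± 0.49). The highest Lars2 levels were 42568 CPM in carcinoma 39, 29934 in metastasis 40, 16665 in hyperplasia 33 and 13308 in carcinoma 53. The share of gene ID 100861531 was also highest in these low-score regions. With that share as a covariate the value for Lars2 was -0.33. The dependence was not tested, so the Lars2 level cannot be read apart from that ID. With groups formed on TMM sizes the value for Chd7 was -0.89. All 5 had the lower mean in 4 of 4 stages, as did 4.41% of all genes. By the DESeq2 Wald test 9 of the 10 genes had an adjusted p under 0.05, from 0.00853 for Cndp2 and Rbbp9 to 0.0464 for Lypla1. The 10 were picked by their edgeR p in the same libraries, so these p-values are no separate support. With the score as a continuous covariate edgeR gave an adjusted p of 0.0270 for both Lars2 and Tln1. Both genes were picked by their edgeR p in these libraries, and the same score formed the groups. These 2 p-values are therefore no separate support either. The total in that score also holds the counts of gene ID 100861531, whose share moved the Lars2 value.

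**Figure D4:**
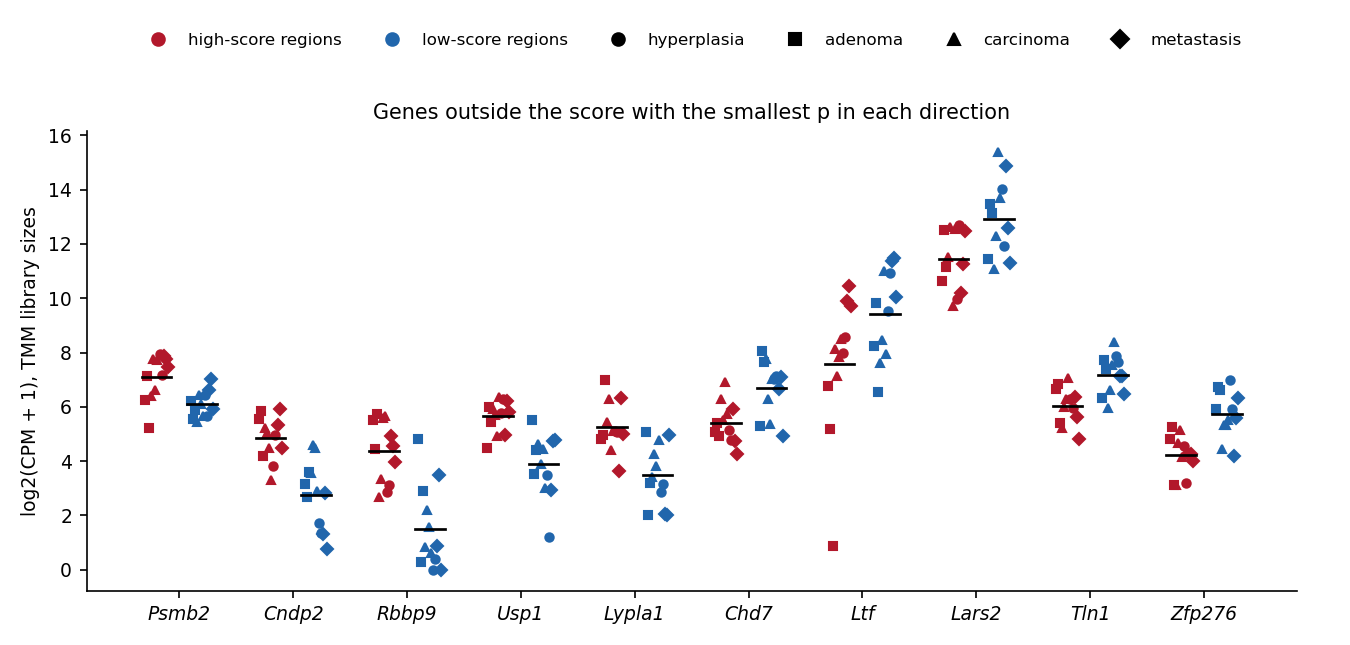
Level of the 5 genes of smallest p in each direction outside the score, among genes passing the level and detection limits, log2(CPM + 1) on TMM library sizes (vertical axis), in 12 high-score regions (red, left) and 12 low-score regions (blue, right); marker shape gives the stage and lines give means. The first 5 genes have higher means in high-score regions and the last 5 lower means, with overlapping points in all 10, and none passed the edgeR test.

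Other genes of G2 and mitosis leaned towards high-score regions without any call. Of 72 members tested, 53 had a fitted fold change above 0, against 48.5% of all genes, with a median log2 fold change of 0.31 against -0.03. Across the list, 14 members were higher in all 4 stages and 1 was lower in all 4, beside 8.56% and 4.41% of all genes, and 4 were higher and 1 lower at an unadjusted p under 0.05. The median stayed between 0.21 and 0.61 over 38 alternatives. The difference in the mean level of the list was -0.15 for hyperplasia, 0.40 for adenoma, 0.76 for carcinoma and 0.71 for metastasis on the log2 scale.

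The members named from this list and those below are preset genes or the up to 3 of smallest p in these libraries. They are therefore not typical of their lists. Ccnb2, a second mitotic cyclin of the G2 and mitosis list, had 26.2, 52.1 and 118 CPM in high-score regions, against 5.77, 23.7 and 78.7 CPM in low-score regions. All 12 high-score regions exceeded the low-score median (log2 fold change 1.07 ± 0.42, edgeR adjusted p = 0.789). Pbk, a mitotic kinase, had 22.5, 53.9 and 152 CPM in high-score regions, against 0.386, 21.6 and 55.6 CPM in low-score regions (log2 fold change 1.24 ± 0.48). Cdk1, the kinase partner of the mitotic cyclins, had 10.3, 49.8 and 88.3 CPM in high-score regions, against 0.386, 27.1 and 73.6 CPM in low-score regions (log2 fold change 0.51 ± 0.53). The first 2 lay higher in 4 of 4 stages and Cdk1 in 3. Plk1, a mitotic kinase, had a log2 fold change of 1.08 ± 0.71, with 27.1 ± 14.3 CPM in high-score regions and 18.8 ± 23.6 CPM in low-score regions. Aurka, the centrosomal Aurora kinase, had 35.1 ± 25.2 CPM in high-score regions and 30 ± 27.5 CPM in low-score regions (0.16 ± 0.66 on the log2 scale). Cenpf, a kinetochore protein, went the other way with 53.6 ± 31.3 CPM in high-score regions and 68.6 ± 68 CPM in low-score regions (-0.25 ± 0.48), and its sign turned in 7 of 38 alternatives. Kif14, a kinesin of cytokinesis, was lower in 4 of 4 stages, with 3.1, 11.1 and 31.8 CPM in high-score regions, against 3.13, 22.4 and 104 CPM in low-score regions (log2 fold change -1.34 ± 0.58).

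Of 50 S phase and DNA replication genes, 33 had a fold change above 0, with a median of 0.18 and 0 calls. Pcna, the sliding clamp of DNA polymerase, had 42, 69.5 and 136 CPM in high-score regions, against 11.1, 44.4 and 79.1 CPM in low-score regions, higher in 4 of 4 stages (log2 fold change 0.75 ± 0.34, edgeR adjusted p = 0.846). Lig1, the ligase that joins Okazaki fragments, had 10.5, 39.6 and 93.4 CPM in high-score regions, against 23.5, 63.5 and 156 CPM in low-score regions, with 5 low-score regions above every high-score one (log2 fold change -0.94 ± 0.40). These 2 replication genes had fold changes of opposite sign. Mcm4, a partner of Mcm2 in the helicase, had 35.8 ± 21.7 CPM in high-score regions and 22.5 ± 25.7 CPM in low-score regions (1.11 ± 0.64). Mcm5, of the same helicase, had 61.6 ± 29.4 CPM in high-score regions and 55.4 ± 44.5 CPM in low-score regions (0.22 ± 0.42). Rrm2, which makes deoxynucleotides, had 79.5 ± 46.9 CPM in high-score regions and 57.1 ± 65.6 CPM in low-score regions (0.76 ± 0.54). Tyms, which makes thymidylate, had 47.6 ± 23.5 CPM in high-score regions and 44.9 ± 39.9 CPM in low-score regions (0.18 ± 0.45). Without the low-score region metastasis 40 the median of the list was 0.06.

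Genes that brake the cycle and genes of G1 were mixed in sign. Of 23 inhibitors and p53 targets, 10 had a fold change above 0 (median -0.31, opposite in sign in 7 of 38 alternatives). Cdkn1a, the p21 inhibitor, had 34.6 ± 24.5 CPM in high-score regions and 21.4 ± 16.1 CPM in low-score regions (0.90 ± 0.62). Cdkn1b, the p27 inhibitor, had 25.9 ± 13.2 CPM in high-score regions and 34.5 ± 21.4 CPM in low-score regions (-0.42 ± 0.43). Both differences were smaller than the SDs within groups. Of 21 G1 and growth factor genes, 11 had a fold change above 0 (median 0.08). Ccnd1, the cyclin D1 that growth signals induce, had 416 ± 276 CPM in high-score regions and 434 ± 223 CPM in low-score regions (-0.15 ± 0.32). Ccne1, which drives entry into S phase, had 13.6 ± 14.3 CPM in high-score regions and 5.52 ± 11.3 CPM in low-score regions (2.16 ± 1.24). Myc had 33 ± 20.4 CPM in high-score regions and 26.9 ± 22.5 CPM in low-score regions (0.35 ± 0.58). Of 20 immediate early genes, 8 had a fold change above 0 (median -0.28). Fos had 100.4 ± 107 CPM in high-score regions and 53.8 ± 68 CPM in low-score regions (0.84 ± 0.77, and -0.07 when the groups were formed on TMM sizes) and Jun 44.8 ± 27 CPM in high-score regions and 54.7 ± 52.6 CPM in low-score regions (-0.29 ± 0.44). Jund, a partner of Fos in AP-1, was lower in 4 of 4 stages, with 24.8, 76 and 164 CPM in high-score regions, against 37.7, 142 and 336 CPM in low-score regions (log2 fold change -0.97 ± 0.35).

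Genes of energy supply and biosynthesis leaned towards high-score regions by small amounts. Of 30 nuclear genes of oxidative phosphorylation, 25 had a fold change above 0, against 48.5% of all genes, with 0 calls. Their median was 0.23, against -0.03 for all genes. With the share of gene ID 100861531 as a covariate their median was 0.12, level with the 0.12 of all genes. Cox7b, a subunit of cytochrome oxidase, had 308, 528 and 744 CPM in high-score regions, against 129.6, 278 and 908 CPM in low-score regions, and all 12 high-score regions exceeded the low-score median (log2 fold change 0.68 ± 0.27). The difference in the mean level of the list was 0.68 for hyperplasia, -0.09 for adenoma, 0.46 for carcinoma and 0.34 for metastasis. Of 19 glycolysis genes, 14 had a fold change above 0 (median 0.24). Slc2a1, the glucose transporter GLUT1, had 31.7, 45.7 and 79.3 CPM in high-score regions, against 1.6, 25.7 and 54 CPM in low-score regions, higher in 4 of 4 stages (log2 fold change 0.99 ± 0.44). Ldha, lactate dehydrogenase, had 1204 ± 459 CPM in high-score regions and 933 ± 282 CPM in low-score regions (0.36 ± 0.21). The hypoxia list had 13 of 18 above 0 (median 0.34) and nucleotide synthesis 14 of 20 (0.14). Sterol and fatty acid synthesis had 15 of 22 (0.18) and the unfolded protein list 12 of 20 (0.19). None of these medians turned sign in 38 alternatives, but the median of all genes moved as well. With the share of gene ID 100861531 as a covariate all genes had a median of 0.12. In that fit hypoxia had 0.50, nucleotide synthesis 0.14, sterol and fatty acid synthesis 0.21 and the unfolded protein list 0.10. The list medians also moved with single high-score regions. They fell to 0.03 for nucleotide synthesis without hyperplasia 21 and 0.03 for sterol and fatty acid synthesis without carcinoma 37. For hypoxia the median was 0.15 without metastasis 58. In hyperplasia the mean level was lower in high-score regions for nucleotide synthesis (-0.11), sterol and fatty acid synthesis (-0.19) and the unfolded protein list (-0.38). Nucleotide synthesis was also lower in adenoma (-0.18), and in the remaining stages these lists were higher. Within the sterol list Sqle, which oxidises squalene, was higher in 4 of 4 stages with 0.91, 56.5 and 80.5 CPM in high-score regions, against 3.08, 26.4 and 75.6 CPM in low-score regions (log2 fold change 1.10 ± 0.51), while Elovl6, which lengthens fatty acids, was lower in 4 of 4 (-0.76 ± 0.35).

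Psmb2 stood in the proteasome list. Of 26 core proteasome genes, 19 had a fold change above 0, against 48.5% of all genes, with a median of 0.08 against -0.03. Over 38 alternatives the median kept its sign and ran from 0.007 to 0.35. The lowest value came with the share of the unnamed gene ID as a covariate. In that fit 15 of 26 were above 0, and the median of all genes was higher, at 0.12. With DESeq2 size factors 13 of 26 were above 0, with a median of 0.03 against -0.096 for all genes. Psma5, a subunit of the outer ring, had 25.5, 60.5 and 88.2 CPM in high-score regions, against 14.2, 30.4 and 57.2 CPM in low-score regions, with 7 high-score regions above every low-score one (log2 fold change 0.81 ± 0.36). Cytosolic ribosomal proteins had 27 of 51 above 0 (median 0.01) and ribosome biogenesis 12 of 28 (-0.07), both near the value for all genes. Rpl14, of the large ribosomal subunit, had a log2 fold change of -0.52 ± 0.22. Heat shock chaperones had 10 of 15 above 0 (0.04).

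**Figure D5:**
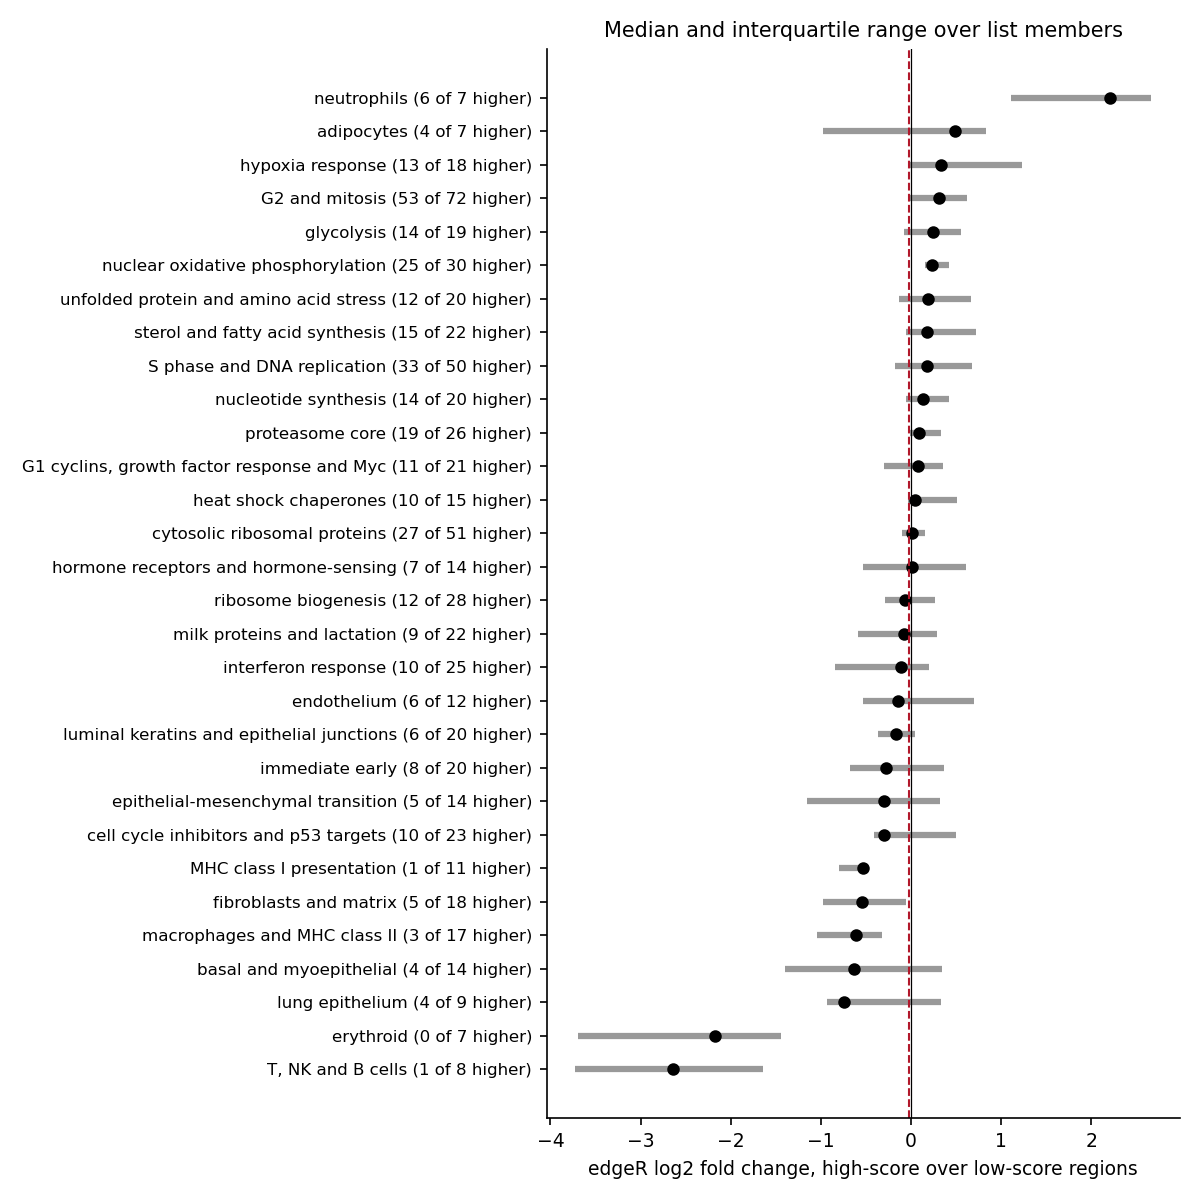
Median (point) and interquartile range (grey bar) of the edgeR log2 fold change over the members of 30 gene lists, high-score over low-score regions, with the number of members higher; the dashed line is the median of all genes tested. G2 and mitosis lies at 0.31 and S phase at 0.18, and fibroblasts and matrix at -0.55, macrophages and MHC class II at -0.61 and T, NK and B cells at -2.64.

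Luminal epithelial markers were high in both groups. Summed luminal markers (7 genes) were 1460, 2305 and 4356 CPM in high-score regions, against 1377, 2664 and 3845 CPM in low-score regions. Krt8, the keratin that also drives the recombinase, had 732 ± 303 CPM in high-score regions and 714 ± 207 CPM in low-score regions (0.04 ± 0.21), Krt18, its partner, 569.6 ± 260.1 CPM in high-score regions and 613 ± 177 CPM in low-score regions (-0.16 ± 0.24), Epcam 499 ± 186 CPM in high-score regions and 513 ± 197 CPM in low-score regions (-0.03 ± 0.24) and Cdh1, E-cadherin, 168 ± 35.7 CPM in high-score regions and 166 ± 84.2 CPM in low-score regions (0.06 ± 0.27). These 4 epithelial genes differed by less than their spread. Of 20 luminal and junction genes, 6 had a fold change above 0 (median -0.17). Of 14 hormone-sensing genes, 7 did (0.01). Esr1, the oestrogen receptor, had 47.2 ± 57.7 CPM in high-score regions and 62.1 ± 86.8 CPM in low-score regions (-0.55 ± 0.67), and Pgr, the progesterone receptor, was near the floor with 3.85 ± 7 CPM in high-score regions and 1.86 ± 3.61 CPM in low-score regions. Of 22 milk genes, 9 did (-0.07). Csn3, kappa casein, had 8321 ± 3686 CPM in high-score regions and 6612 ± 3213 CPM in low-score regions (0.34 ± 0.25), Csn2, beta casein, 131 ± 435 CPM in high-score regions and 629 ± 2164 CPM in low-score regions, and Wap, whey acidic protein, 106 ± 123 CPM in high-score regions and 146 ± 246 CPM in low-score regions (-0.01 ± 0.74). Mfge8, a milk fat globule protein, was lower in 4 of 4 stages, with 31.5, 345 and 1081 CPM in high-score regions, against 100.4, 862 and 2238 CPM in low-score regions (log2 fold change -1.45 ± 0.50).

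Markers of other cell types varied widely between regions. Fibroblast markers (8 genes, 7 with the lower mean in high-score regions) summed to 24.2, 86.0 and 836 CPM in high-score regions, against 16.1, 202 and 1290.0 CPM in low-score regions. Col1a1, type I collagen, had 45.3 ± 68.6 CPM in high-score regions and 70.7 ± 60.6 CPM in low-score regions (-1.03 ± 0.61), and Vim, vimentin, 37.6 ± 27.8 CPM in high-score regions and 23 ± 20.9 CPM in low-score regions (0.71 ± 0.68). Macrophage markers (7 genes, 6 lower) summed to 29.4, 69.8 and 610 CPM in high-score regions, against 48.2, 157 and 401 CPM in low-score regions. C1qa, a complement gene of macrophages, had 12.5 ± 13.8 CPM in high-score regions and 26.6 ± 19.4 CPM in low-score regions (-1.04 ± 0.63). H2-Aa, of MHC class II, had 4.56, 25.9 and 395 CPM in high-score regions, against 11.8, 90 and 664 CPM in low-score regions (log2 fold change -1.48 ± 0.63), lower in 4 of 4 stages. Markers of T, NK and B cells summed to 0, 0.567 and 215 CPM in high-score regions, against 0, 44.5 and 702 CPM in low-score regions. Ptprc, CD45, had 10.2 ± 6.04 CPM in high-score regions and 74.3 ± 171 CPM in low-score regions (-0.38 ± 0.81), with 4 low-score regions above every high-score one. Its median went the other way, with 11.5 CPM in high-score and 8.81 CPM in low-score regions, and it was higher in 3 of 4 stages. The largest low-score values were in adenoma 36 (588 CPM) and adenoma 50 (199.6 CPM). Basal markers summed to 20.9, 62.9 and 379 CPM in high-score regions, against 43.96, 136 and 317 CPM in low-score regions. Krt14, a basal keratin, had 0.0582, 11.8 and 278 CPM in high-score regions, against 0.472, 21.2 and 102 CPM in low-score regions (-0.68 ± 0.83), and the highest value gave the high-score regions the higher mean (39.3 against 34.1 CPM). No marker of any of these lists was at 0 in all 24 regions. The part of these cells in the lower-valued genes was not tested.

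Gene lists for these cell types, longer than the markers, were mostly below 0 in the fit over all stages, but not in every stage. In high-score regions 5 of 18 fibroblast and matrix genes had a fold change above 0 (median -0.55), 3 of 17 macrophage and MHC class II genes (-0.61), 1 of 8 T, NK and B cell genes (-2.64), 4 of 14 basal genes (-0.63) and 5 of 14 genes of epithelial-mesenchymal transition (-0.30). Itgb1, integrin beta 1 in that last list, was an exception with a higher mean in 4 of 4 stages and 125, 189 and 361 CPM in high-score regions, against 69.2, 119 and 235 CPM in low-score regions (log2 fold change 0.58 ± 0.27). Neutrophil genes leaned the other way, 6 of 7 above 0 (2.21). Their markers summed to 8.27, 32.6 and 992 CPM in high-score regions, against 0, 9.07 and 475 CPM in low-score regions. The highest of these sums were in metastasis 02 (high-score) and metastasis 57 (low-score). With groups formed on TMM sizes the neutrophil median was 1.17, with 4 members above 0. With the continuous score it was 0.37 per unit of score. The mean level of the neutrophil list was lower in high-score regions of carcinoma (-0.19) and higher in those of the remaining stages. Interferon response genes had 10 of 25 above 0 (-0.11), adipocyte genes 4 of 7 (0.48), endothelial genes 6 of 12 (-0.14), lung epithelial genes 4 of 9 (-0.75) and erythroid genes 0 of 7 (-2.18). Erythroid markers summed to 0.365, 307 and 4265 CPM in high-score regions, against 6.03, 102 and 19926 CPM in low-score regions, so their median level and their fold changes differed in direction. Lung markers summed to 1.29, 3.75 and 4467 CPM in high-score regions, against 0, 4.28 and 4089 CPM in low-score regions, with the highest sums in metastasis 02 and 56. With 1 region left out at a time, the medians ran from -1.04 to -0.31 for fibroblast genes, -0.86 to -0.46 for macrophage genes, 1.03 to 2.76 for neutrophil genes and -5.09 (without high-score carcinoma 54) to -1.87 for T, NK and B cell genes. The fibroblast median was -0.15 with the share of gene ID 100861531 as a covariate and -1.07 with the score without Mcm2. In hyperplasia the mean log2 level was higher in high-score regions for fibroblast (0.92), macrophage (0.92), basal (1.035) and transition (0.93) genes. For the same lists in turn it differed by -1.34, -1.33, -0.81 and -0.29 in adenoma. The differences were -0.33, -0.82, -0.8 and -0.80 in carcinoma and -0.26, -0.18, -0.23 and 0.10 in metastasis. The medians of the G1, ribosomal protein, ribosome biogenesis, heat shock, milk, hormone, interferon, transition, adipocyte, endothelial, lung and erythroid lists turned sign in 1 or more of 38 alternatives.

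MHC class I genes depended on how the groups were formed. Of 11 members 1 had a fold change above 0 (median -0.54), but with groups formed on TMM sizes 9 of 11 did (0.15), and without the low-score region adenoma 36 (groups as before) the median was 0.12, while without the high-score region carcinoma 54 it was -1.24. The mean level of the list differed by -1.31 in hyperplasia, -0.50 in adenoma and -0.96 in carcinoma, and by 1.12 in metastasis. H2-D1, a classical class I heavy chain, had 146, 365 and 4522 CPM in high-score regions, against 218, 750 and 4230 CPM in low-score regions (log2 fold change -0.71 ± 0.52). Tapbp, tapasin of the peptide loading complex, had 17.4, 174 and 455 CPM in high-score regions, against 105, 202 and 373 CPM in low-score regions (log2 fold change -0.50 ± 0.33), lower in 4 of 4 stages. The member above 0 was Erap1, which trims peptides, with 10.7, 26.4 and 57.9 CPM in high-score regions, against 0, 8.35 and 97.9 CPM in low-score regions.

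Position and colour, labels that the score did not use, gave no difference that passed a test. Core regions (tumour core or lung centre) were 7 of 12 high-score and 5 of 12 low-score regions (exact permutation test within stages, two-sided, p = 0.684, adjusted over 2 label tests 0.696). RFP regions were 7 of 12 high-score and 5 of 12 low-score regions (exact permutation test, p = 0.696, adjusted 0.696). Whole profiles were about as alike within a group as between groups. Spearman's rho across genes, a description over libraries that share stage, had a median of 0.72 over the 26 pairs of the same stage and group, and of 0.70 over the 38 pairs of the same stage in different groups.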

How the data were processed

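RNA of laser-captured regions was measured in 32 libraries. The authors deposited a table of unnormalized counts for 24454 gene IDs. Reads were aligned with STAR to mm10, per the submitters' processing notes. The deposited counts carry the label quasR. The strand setting and multi-mapping rule were not given in the sources used for this work, so reads of overlapping or near-identical genes cannot be told apart. Amplified reads without molecular identifiers are not independent molecules. Symbols came from RefSeq GRCm38.p6 (24374 IDs matched, 80 not).

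The 7-gene score and the groups were computed as in the report, with a pseudocount of 1. Counts of 24 libraries were filtered with filterByExpr (17363 genes), TMM-scaled and tested in edgeR by its quasi-likelihood model (terms stage and group), two-sided, with Benjamini-Hochberg adjustment at 0.05. CPM levels in the text use TMM sizes. SEs were derived from the fold change and the p-value by the normal quantile. R 4.3.3, edgeR 4.0.16, limma 3.58.1, DESeq2 1.42.0 and Python 3.11.15 were used. The pipeline was tested on simulated data. Alternatives were other tools and scaling, no low-count filter, other score settings, covariates and each library left out in turn.

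Members, lists (30) and named genes were chosen with earlier results of these data known. Named genes include the score genes and a preset group of marker genes. Up to 10 called genes each way were to be named if their higher group averaged 20 CPM or more. That group also needed 10 or more reads in 75% of its regions. Failing that, the 5 of smallest p within the same limits were named. Of each list up to 3 members were named, those of smallest p that averaged 20 CPM or more in either group. No gene was called, so all are given as values. Gene ID 100861531 was singled out after its values were seen.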

Additional observations from a re-analysis of the deposited data

Results flagged for a closer look

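A region was picked out where it lay far from the others of its stage, by Dixon's rule, in 7 of 44 groups of values tested, and chance flags about 1 in 20 groups. In hyperplasia, region 46 had a total count of 15226553, the next being 7887024, and a Birc5 level of 332 CPM on the column total, the next being 113. Hyperplasia 21 had a Ccnb1 level of 103 CPM on the column total, the next being 33.8. In adenoma, region 24 had 16835 detected genes, the next being 14439. Adenoma 47 had Tpx2 at 202 CPM and Ccnb1 at 185 CPM on the column total, the next being 68.6 and 60.6. In metastasis, gene ID 100861531 took 78.8% of the counts of region 40, the next being 29.5%.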

How the results depend on the processing

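Leaving out each of the 24 regions in turn gave 0 calls in every fit, and the mean score difference stayed between 1.34 and 1.64. The count of called genes moved to 33 higher and 28 lower with the DESeq2 Wald test. It moved to 5 higher and 9 lower with the continuous score. Genes whose difference between groups varied by stage moved to 16 with the DESeq2 likelihood ratio test. The cause of these moves was not tested. The difference in RFP regions was -1 (exact permutation test, p = 1) with groups formed on TMM sizes, and that in core regions -1 (p = 1) with all 29 lesion libraries, which ranks 13 regions into each group. Of 4673 values for single genes 28 moved by more than their spread, and of 1140 for lists 36. The median of all genes was 0.12 with the share of gene ID 100861531 as a covariate and -0.16 without a stage term, against -0.03. The covariate for that share and the removal of that ID from the counts were chosen after seeing the data. No paired analysis was possible because the groups share no replicate numbers. Depth and the spread between regions limit all levels of a few CPM.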

Other observations

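The libraries outside the comparison were scored the same way. The normal gland libraries 18, 28 and 30 scored 4.42, 4.42 and 4.55. The lesion libraries under 11000 detected genes scored 4.07 (hyperplasia 22), 3.33 (adenoma 51) and 5.42 (metastasis 42).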
